A study of Homo sapiens with 688 samples.

Results

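Nucleoside analogues are drugs that resemble the building blocks of DNA or RNA. After uptake through nucleoside transporters they are phosphorylated by cellular kinases such as deoxycytidine kinase, and the triphosphates are built into nucleic acid, where they stall or end the growing strand, while several also block ribonucleotide reductase, the enzyme that supplies deoxynucleotides. Stalled replication commonly activates p53, whose targets arrest the cell cycle or promote death. Azacitidine and decitabine are cytosine analogues known mainly for trapping DNA methyltransferases.

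The study profiled U87 cells, an established human glioma line, by PLATE-Seq, which captures polyadenylated RNA in multiwell plates, barcodes each well during reverse transcription and counts the 3′ ends of transcripts. Wells were chosen by their drug label: of the 12 analogue names searched for, 7 were found, namely azacitidine, decitabine, gemcitabine, cytarabine, fludarabine, cladribine and clofarabine. Each was present in 1 well of plate A and 1 well of plate B, which gave 14 wells of the 384 U87 wells and the 688 samples of the series. The paper's methods describe the U87 doses by growth inhibition and give a viability rule only for its breast cancer screen. Per the labels, each drug was given for 24 h at the concentration that left 80% of the cells viable after 48 h. These were 0.388 µM azacitidine, 0.644 µM decitabine, 0.0085 µM gemcitabine, 1.4 µM cytarabine, 3.2 µM fludarabine, 0.17 µM cladribine and 0.164 µM clofarabine. Controls on the same plates were 4 DMSO wells (the vehicle), 4 untreated wells and 170 wells of 85 other compounds. A compound held the same well position on both plates, so compound and position cannot be told apart. Each well held the pooled lysate of a pair of culture wells, and nothing stated that the plates were separate cultures, so the p-values measure the spread between wells, which may be technical.

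The 192 wells of both plates had 76948 to 1128215 counts, with a median of 601374. The analogue wells other than fludarabine had 525367 to 905601 counts and 11124 to 12129 detected genes, and the DMSO wells 445250 to 588082 counts. The fludarabine wells, with 76948 counts on plate A and 95412 on plate B, were the only wells under 150000 and the lowest of their plates, with 5925 and 6979 detected genes. Fewer cells, less RNA per cell and a technical loss at the well position, which both fludarabine wells shared, cannot be told apart in these data. The mesenchymal markers VIM and CD44 averaged 2962 and 1056 CPM, counts scaled to the same total in each well, over the 192 wells, whereas GFAP, which marks astrocytes, had 22 counts in all of them together. A list of 11 markers of other cell types summed to 64.95 to 144.1 CPM in the analogue wells and 66.57 to 128 CPM in the DMSO wells, while KLK3 and TMPRSS2 were at 0.

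**Figure D1:**
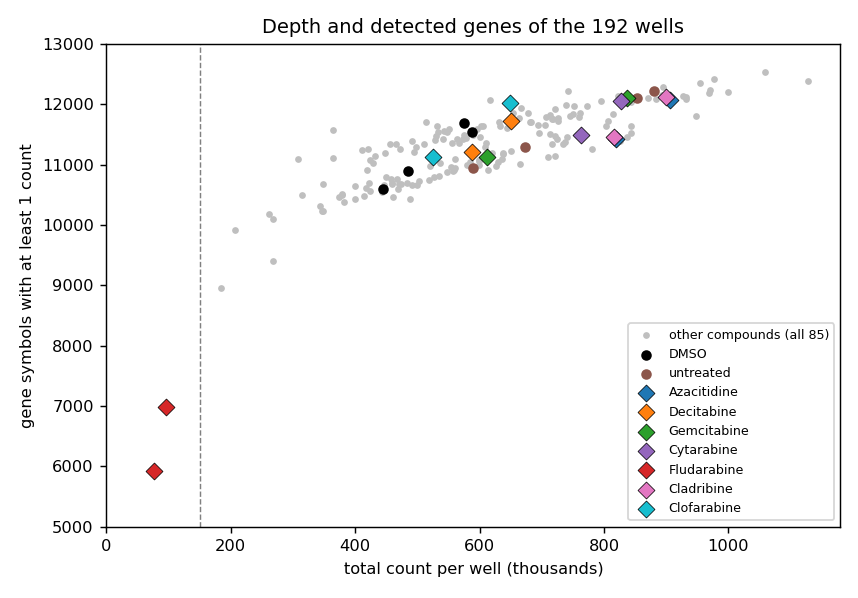
Number of gene symbols with at least 1 count (vertical axis) against the total count per well (horizontal axis) for the 192 wells, one point per well, with diamonds for the 7 analogues and a dashed line at 150000 counts. The fludarabine wells are the only points left of the line, at 76948 and 95412 counts, and the other analogue wells lie among the remaining wells.

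The DMSO wells also stood apart from the rest. The untreated wells differed from DMSO in 80 of 8516 genes tested (0.939%) at an adjusted p under 0.05 in the edgeR quasi-likelihood test. SETD5, which encodes a chromatin regulator, read 111.7, 63.51, 104.7 and 69.97 CPM in the DMSO wells and 23.53, 13.8, 52.74 and 42.31 CPM in the untreated wells. All untreated wells were below all DMSO wells. EIF2A, a translation initiation factor, read 30.91, 50.37, 21.25 and 29.77 CPM with DMSO and 88.24, 148.4, 68.56 and 109.4 CPM untreated, also without overlap. Results against DMSO are therefore given beside those against the untreated wells and against the wells of other compounds.

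Clofarabine, a chlorinated and fluorinated adenosine analogue, had more genes called against DMSO than any other analogue except fludarabine. The genes called higher included 15 of 27 p53 targets and 6 of 10 genes of the integrated stress response, the program by which the factor ATF4 answers amino acid shortage and protein folding stress. Against DMSO, 224 of 8516 genes (2.63%) were called, 117 higher (1.37%) and 107 lower. Against untreated wells 339 were called (3.98%). Against the wells of other compounds, a comparison whose spread includes that between compounds, 15 of 10032 genes were called (0.15%), 13 higher (0.13%) and 2 lower. Without the plate A well 43 genes were called against DMSO, without the plate B well 23, and against other compounds 0 in each case, with 411 and 562 genes at an unadjusted p under 0.05 in edgeR. Such fits leave 1 well in the group, which is assumed to vary like the other groups.

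GDF15, a secreted stress cytokine and p53 target, read 669.8 CPM on plate A and 760.9 CPM on plate B with clofarabine, against 38.04, 50.37, 47.06 and 28.29 CPM with DMSO. The groups were far apart, and of the 85 wells of other compounds per plate 1 was higher on plate A and 0 on plate B. Its log2 fold change was 4.16 ± 0.22 (SE) against DMSO (adjusted p = 1e-32) and 3.02 ± 0.50 against other compounds (adjusted p = 9.8e-05). CDKN1A, which encodes the cyclin-dependent kinase inhibitor p21, read 1759 and 2436 CPM against 278.2, 385.4, 414.4 and 522.5 CPM with DMSO. Both clofarabine wells were above all DMSO wells, and 2 and 1 of the other compound wells of their plates were higher. Its log2 fold change was 2.41 ± 0.15 against DMSO (adjusted p = 2e-27) and 1.90 ± 0.42 against other compounds (adjusted p = 0.021). Both genes stayed called against DMSO without either clofarabine well. Against other compounds neither did, with adjusted p of 0.109 and 0.376 for GDF15 and 0.999 and 0.67 for CDKN1A without the plate A and the plate B well.

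**Figure D2:**
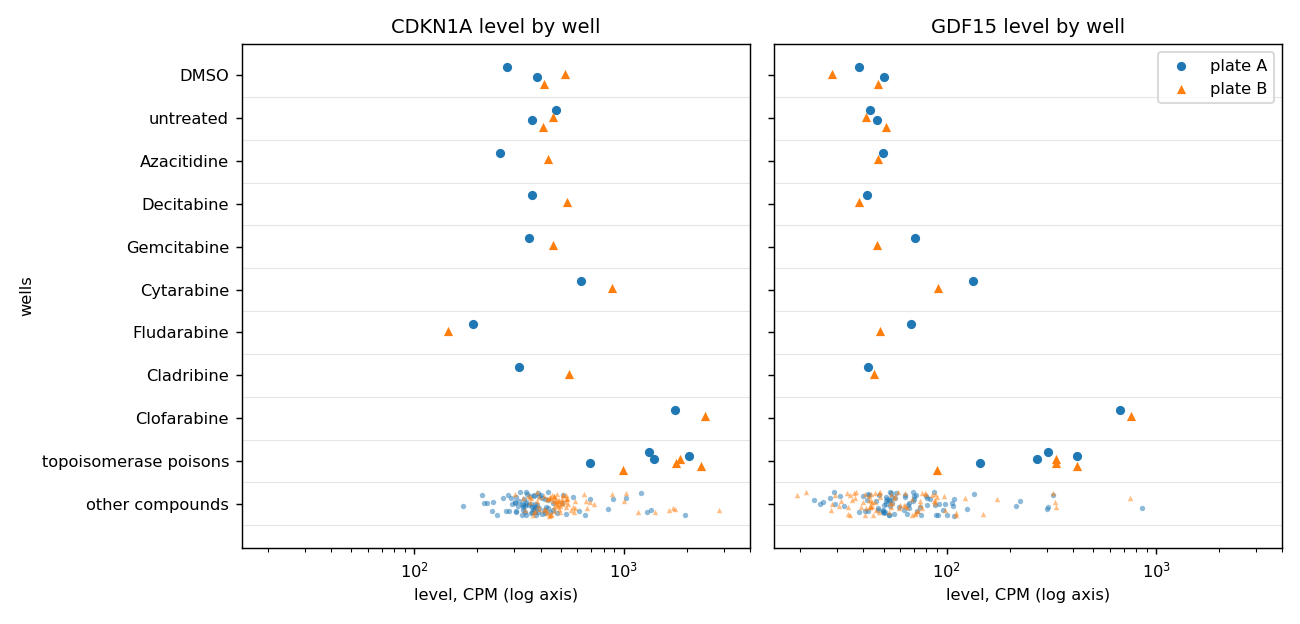
CDKN1A (left) and GDF15 (right) in CPM on a log axis, one point per well, for DMSO, untreated, the 7 analogues, 4 topoisomerase poisons and the other compounds, with circles for plate A and triangles for plate B. The clofarabine wells are the highest of the analogues, at 1759 and 2436 CPM for CDKN1A and 669.8 and 760.9 CPM for GDF15, and the cytarabine wells come next.

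Of the 27 p53 targets tested, 15 rose, 0 fell and 26 had a positive fold change, with a median of 1.09 on the log2 scale beside −0.0004 over all genes. DESeq2 called 12 of them. The count was 4 without the plate A well (CDKN1A, GADD45A, GDF15 and RPS27L), 3 without the plate B well (CDKN1A, FAS and GDF15) and 16 against untreated wells. By role, with both wells, 5 of 7 arrest genes rose (BTG2, CCNG1, CDKN1A, GADD45A and SESN2), as did 2 of 3 feedback genes (MDM2 and RPS27L), 3 of 7 death genes (FAS, PHLDA3 and TP53I3), 1 of 4 repair genes (DDB2) and 4 of 6 secreted or metabolic genes (C12orf5, CYFIP2, FDXR and GDF15). MDM2, the ubiquitin ligase that degrades p53, read 77.36 and 125.3 CPM against 40.42, 10.95, 40.99 and 37.22 CPM. The groups did not overlap, and its log2 fold change was 1.70 ± 0.35 (adjusted p = 0.00071), although the call was lost without the plate A well (0.0646) or the plate B well (0.183). FAS, a death receptor, read 268.7 and 150.6 CPM against 83.21, 98.54, 57.69 and 77.41 CPM, above every DMSO well, with a log2 fold change of 1.38 ± 0.24 (adjusted p = 2.2e-05, 0.0555 without the plate A well). Against other compounds 29 of 30 targets had a positive fold change (median 0.87) but only CDKN1A and GDF15 were called.

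Of 10 integrated stress response genes, 6 rose and 0 fell against DMSO, namely ASNS, CHAC1, DDIT3, DDIT4, PSAT1 and TRIB3, with a median log2 fold change of 0.87. The count was 3 without the plate A well (CHAC1, DDIT3 and PSAT1), 1 without the plate B well (ASNS) and 7 against untreated wells. CHAC1, which degrades glutathione, read 144.5 and 109.3 CPM with clofarabine against 38.04, 6.57, 16.7 and 13.4 CPM with DMSO. Both wells were above all DMSO wells, a rise of 2.82 ± 0.39 on the log2 scale against DMSO (adjusted p = 1.1e-06) and of 1.69 ± 0.42 against other compounds (adjusted p = 0.049). DDIT3, the stress factor CHOP, read 230 and 243.8 CPM against 47.55, 133.6, 65.28 and 92.3 CPM, again without overlap, and rose by 1.51 ± 0.24 on the log2 scale against DMSO (adjusted p = 6.2e-06) and by 1.37 ± 0.31 against other compounds (adjusted p = 0.021). Without the plate B well neither was called against DMSO (adjusted p = 0.213 for CHAC1 and 0.0759 for DDIT3). DDIT3 and CHAC1 were also the only list members called against other compounds.

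Among the 13 genes higher than with other compounds were further genes of protein folding stress, named after their values were seen. HERPUD1, a protein of endoplasmic reticulum degradation, read 103.8 and 226.5 CPM, and 0 of 85 other compound wells was higher on either plate, with medians of 37.51 and 84.7 CPM. Its log2 fold change against them was 1.38 ± 0.24 (adjusted p = 0.00018). XBP1, a transcription factor of the unfolded protein response, read 242.3 and 229.2 CPM against medians of 99.64 and 111.5 CPM, again above every other compound well, 1.14 ± 0.23 higher on the log2 scale (adjusted p = 0.0027). The promoter windows of these genes, read from 250 bases before to 50 after the start in RefSeq (GRCh38.p14), were searched on both strands for the ER stress response element, which is CCAAT and CCACG with 9 bases between, and for the core TGATGNAA of the amino acid response element bound by ATF4. The matches are shown 5′ to 3′ with the motif in capitals, because they show where the motif lies in genes of these stress programs. ATF3 is included although it was not called against DMSO.
XBP1, ER stress response element, chr22:28800598-28800626, minus strand, 52 to 34 bases before the start: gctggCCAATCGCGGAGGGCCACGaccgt
CHAC1, amino acid response element core, chr15:40953252-40953279, minus strand, 209 to 202 bases before the start: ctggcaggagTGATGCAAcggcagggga
HERPUD1, amino acid response element core, chr16:56931956-56931983, minus strand, 176 to 169 bases before the start: gggcacgggcTGATGCAAcccgccgcgt
ASNS, amino acid response element core, chr7:97872459-97872486, minus strand, 68 to 61 bases before the start: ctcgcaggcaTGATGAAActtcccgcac
ATF3, amino acid response element core, chr1:212565206-212565233, plus strand, 191 to 184 bases before the start: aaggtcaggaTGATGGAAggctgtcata

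The ER stress response element was present in 25 of 27305 RefSeq windows (0.0916%) and in 1 of the 10 windows found for the 13 genes, that of XBP1. The amino acid response core was present in 1217 windows (4.46%), in 2 of those 10, in 7 of 89 windows (7.87%) found for the 117 genes that rose against DMSO, and in 3 of 9 windows found for the 10 integrated stress response genes. A match describes letters and not a bound site. ASNS, which makes asparagine, read 250.4 and 71.95 CPM with clofarabine against 92.72 and 109.5 CPM with DMSO on plate A and 31.88 and 22.33 CPM on plate B. Its groups overlapped between plates but not within a plate, and its log2 fold change was 1.35 ± 0.27 (adjusted p = 0.00052, 0.258 without the plate A well). ATF3, a stress factor, read 148.6 and 87.94 CPM against 76.08, 96.35, 53.13 and 38.71 CPM, overlapping across plates, and missed the threshold at 0.89 ± 0.27 (adjusted p = 0.051).

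**Figure D3:**
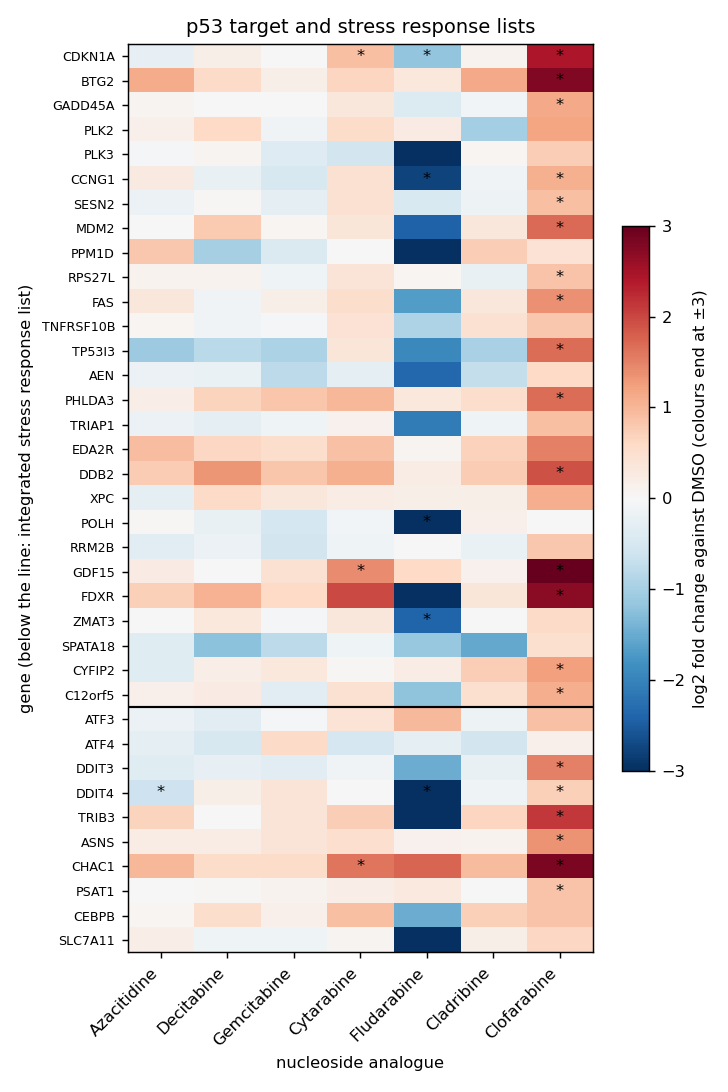
Fitted log2 fold change against DMSO (colour, red higher and blue lower, ending at ±3) of each tested p53 target and, below the line, integrated stress response gene (vertical axis) for the 7 analogues (horizontal axis), with an asterisk at an adjusted p under 0.05. Clofarabine has 15 asterisks among p53 targets and 6 among stress response genes, cytarabine 2 and 1, and gemcitabine, decitabine and cladribine 0.

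Other genes that rose with clofarabine included IL11, a cytokine, at 232.1 and 173.2 CPM against 59.44, 54.75, 62.24 and 61.04 CPM, and TOPBP1, an activator of the ATR checkpoint kinase, at 207.7 and 163.9 CPM against 59.44, 65.7, 60.72 and 58.06 CPM. Neither overlapped DMSO, and both stayed called without either well, with log2 fold changes of 1.76 ± 0.26 for IL11 (adjusted p = 5.9e-07) and 1.62 ± 0.25 for TOPBP1 (adjusted p = 2e-06). TOPBP1 was the only one of 18 replication stress and repair genes to rise, and 0 fell. LCE1F, which encodes a late cornified envelope protein, read 496.7 and 169.2 CPM against 42.8 and 45.99 CPM on plate A and 9.108 and 13.4 CPM on plate B, above DMSO on both plates, with a log2 fold change of 3.71 ± 0.29 (adjusted p = 2.8e-20). It is nearly identical to LCE1E and other family members, so the reads cannot be assigned to it with certainty. The inflammatory genes IL1B and IL8 rose, 2 of 11 on their list, and 0 were called without the plate A well or without the plate B well.

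Of 30 G2/M genes the mitotic kinase AURKA and the topoisomerase TOP2A fell and 0 rose (median −0.38), and of 26 G1/S and replication genes the S phase factor E2F1 fell and 0 rose. TOP2A read 124.2 CPM on plate A against 180.7 and 201.5 CPM, and 167.9 CPM on plate B against 343.1 and 308.2 CPM, below DMSO on both plates (log2 fold change −0.79 ± 0.20, adjusted p = 0.011). None of the 3 was called without the plate A well or without the plate B well, and against untreated wells 5 G2/M genes were called lower, AURKA, CENPE, CENPF, MKI67 and TOP2A. The largest falls by the naming rule were COMMD10, SETD5, ZC3H13 and BAZ1B. COMMD10, a member of a family of protein sorting factors, read 8.143 and 11.99 CPM against 73.7, 78.84, 77.42 and 38.71 CPM, below all DMSO wells, with a log2 fold change of −2.59 ± 0.47 (adjusted p = 0.00016, 0.127 without the plate A well and 0.0717 without the plate B well). NPM1, the nucleolar chaperone nucleophosmin, read 40.72 and 41.31 CPM, lower than all 85 other compound wells of its plate each time, where the medians were 84.07 and 113.2 CPM, with a log2 fold change of −1.26 ± 0.30 (adjusted p = 0.032). It was not called against DMSO, where 1 well read 48.18 CPM. ENO1, a glycolytic enzyme named after its values were seen, read 1643 and 2000 CPM against 2775, 3760, 4194 and 4253 CPM with DMSO, below all of them (log2 fold change −1.01 ± 0.14, adjusted p = 5.8e-08).

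Cladribine and clofarabine are both chlorinated deoxyadenosine analogues, and clofarabine also carries a fluorine on the sugar. They were the only analogues at near-matched doses, 0.17 µM and 0.164 µM, so a single pair was compared, and no other pair. Of 8516 genes, 79 differed (0.928%), 33 higher and 46 lower (0.54%) with cladribine, and 128 when the fludarabine wells were left out of the fit. Of 27 p53 targets 10 were lower with cladribine and 0 higher (median log2 difference −1.09), and of 10 integrated stress response genes 5 were lower and 0 higher (median −0.95), while the median over all genes was −0.0018. Without the wells of plate A or of plate B, 3 p53 targets were lower in each case, GDF15 and CDKN1A in both, and 0 stress response genes. The pair differed in 12 genes without the plate A wells and 11 without the plate B wells.

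GDF15 read 42.32 and 44.97 CPM with cladribine against 669.8 and 760.9 CPM with clofarabine, a log2 difference of −4.04 ± 0.27 (adjusted p = 1.4e-24). CDKN1A read 317.4 and 548.9 CPM against 1759 and 2436 CPM, a log2 difference of −2.30 ± 0.18 (adjusted p = 1.8e-19). The cladribine wells lay within the range of the DMSO wells for GDF15, and for CDKN1A within it on plate A and just above it on plate B. TXNDC17, a thioredoxin-like protein, read 390.7 and 391.5 CPM with cladribine and 156.8 and 131.9 CPM with clofarabine, a log2 difference of 1.43 ± 0.22 in the opposite direction (adjusted p = 4.2e-06, 0.1 without the plate B wells). Other values did not pass the test. MCM5, a subunit of the replicative helicase, differed by −0.01 on the log2 scale with a 95% interval of −0.51 to 0.50, RRM1, the large subunit of ribonucleotide reductase, by −0.02 (−0.54 to 0.50), and IL1B by 0.04 (−0.24 to 0.32). MDM2 differed by −1.37, with an interval of −2.14 to −0.61 and an adjusted p of 0.054.

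**Figure D4:**
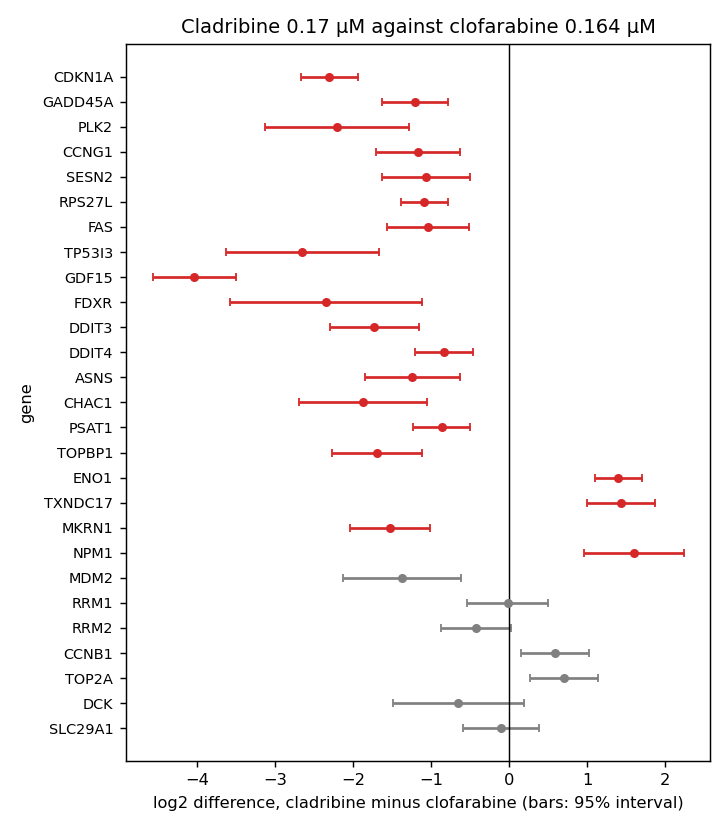
Fitted log2 difference, cladribine minus clofarabine (horizontal axis), for the called p53 targets and stress response genes and for 12 further genes named in the text (vertical axis), with bars of the 95% interval and red where the adjusted p was under 0.05. The called p53 targets and stress response genes lie left of zero, GDF15 furthest at −4.04, and ENO1, TXNDC17 and NPM1 lie right of it.

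Against DMSO cladribine changed 73 genes (0.857%), 36 up and 37 down, and against untreated wells 129 (1.51%). None of the 27 p53 targets was called, and among the lists only IL1B and UBE2C rose, neither of them without the plate A well (adjusted p = 0.641 and 0.462) or the plate B well (0.223 and 0.603). Against other compounds 2 genes were called (0.0199%). TXNDC17 was higher, at 390.7 and 391.5 CPM where the other compound wells had medians of 147.7 and 175.2 CPM and reached 262.8 and 357.6 CPM, so both cladribine wells were above every one of them (log2 fold change 1.25 ± 0.21, adjusted p = 9.7e-05). MKRN1, a ubiquitin ligase, was lower, at 77.58 CPM on plate A and 83.81 CPM on plate B against medians of 356.4 and 127.5 CPM. On plate A it was below all other compound wells and on plate B within their range (59.02 to 208.2 CPM), at −1.27 ± 0.24 on the log2 scale (adjusted p = 0.0019), and without the plate A well neither gene was called (adjusted p = 1). By the naming rule COMMD6, WBP11, COL15A1 and SLK rose most against DMSO and SETD5, DYNC1H1, C11orf74 and RSRC1 fell most. COMMD6 read 404.8 and 555 CPM against 209.2, 199.3, 153.3 and 117.6 CPM, above all DMSO wells (log2 fold change 1.54 ± 0.23, adjusted p = 0.00022, 0.0882 without the plate B well).

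Cytarabine, the arabinose analogue of cytidine, had few called list members. It changed 87 genes against DMSO (1.02%), 46 up (0.54%) and 41 down (0.481%), 115 against untreated wells (1.35%) and 0 against other compounds (0%), where 292 genes had an unadjusted p under 0.05 and edgeR was the only tool run. Leaving out the plate A well left 4 calls against DMSO, and leaving out the plate B well 9. CDKN1A read 626.4 and 881.1 CPM against 278.2, 385.4, 414.4 and 522.5 CPM and did not overlap DMSO (log2 fold change 0.90 ± 0.15, adjusted p = 6.7e-05, 0.196 without the plate B well). GDF15 read 133 and 90.45 CPM, also above all DMSO wells, which reached 50.37 CPM (log2 fold change 1.42 ± 0.25, adjusted p = 0.00012, 0.249 without the plate A well). These were the 2 p53 targets of 27 that rose, 21 had a positive fold change and 0 fell (median 0.38). CHAC1 was the 1 integrated stress response gene of 10 that rose, and was not called without the plate A well (adjusted p = 0.792) or the plate B well (0.667).

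Of 26 G1/S and replication genes 25 had a negative fold change with cytarabine (median −0.66), 11 had an unadjusted p under 0.05 and 2 were called, MCM4 and MCM5, both subunits of the replicative helicase. MCM4 read 87.16 and 65.98 CPM against 102.2, 214.6, 124.5 and 145.9 CPM (log2 fold change −0.96 ± 0.24, adjusted p = 0.02). MCM5 read 70.91 and 64.91 CPM against 161.7, 155.5, 106.3 and 93.79 CPM (−0.90 ± 0.24, adjusted p = 0.033). In both genes the cytarabine wells lay below all DMSO wells. Of 30 G2/M genes 3 rose and 0 fell (median 0.23). CCNB1, the mitotic cyclin B1, read 320.6 and 299 CPM against 171.2, 164.2, 227.7 and 153.3 CPM, above every DMSO well (log2 fold change 0.78 ± 0.18, adjusted p = 0.0089). CCNB2 and PTTG1, the securin that holds back chromosome separation, were the others. PTTG1 read 1783 CPM against 1106 and 1191 CPM on plate A and 988.6 CPM against 722.6 and 610.4 CPM on plate B, higher within each plate (0.59 ± 0.14, adjusted p = 0.0068). All 5 calls were lost without the plate A well and without the plate B well, and MCM4 and CCNB2 were not called against the untreated wells.

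By the naming rule EIF2A, PLXNB2, UBE2S and GDF15 rose most with cytarabine and SETD5, TAF15, RBM17 and EFNB2 fell most. EIF2A, PLXNB2 and TAF15 moved the same way in the untreated wells against DMSO, where all 3 were called, as SETD5 was. UBE2S, a ubiquitin-conjugating enzyme of mitotic exit, read 112.3 and 109.6 CPM against 16.64, 52.56, 24.29 and 65.5 CPM, above all DMSO wells (log2 fold change 1.44 ± 0.30, adjusted p = 0.0023, 0.583 without the plate A well and 0.36 without the plate B well). RBM17, a splicing factor, read 29.55 and 45.76 CPM against 83.21, 98.54, 109.3 and 141.4 CPM, below all of them (−1.52 ± 0.29, adjusted p = 0.00034). The inflammatory gene IL8 read 1500 and 1855 CPM against 860.7, 915.4, 798.5 and 1091 CPM, without overlap (0.85 ± 0.13, adjusted p = 2.2e-05, 0.0944 without the plate B well), but the untreated wells reached 1386 CPM and it was not called against them (adjusted p = 0.07).

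**Figure D5:**
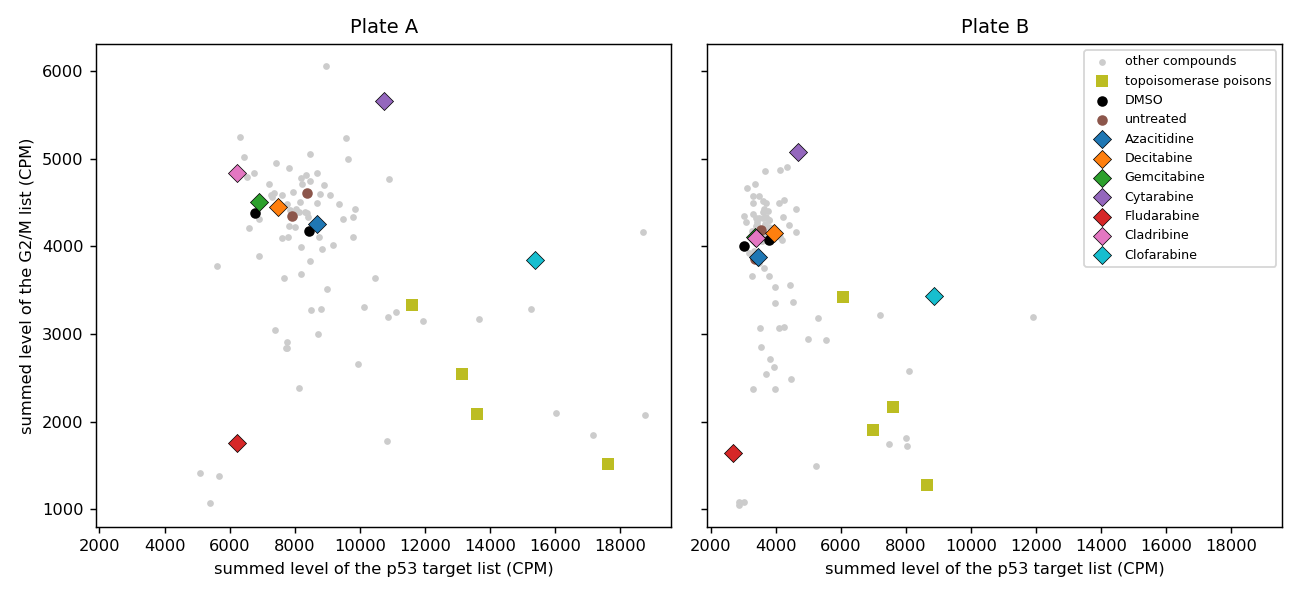
Summed CPM of the p53 target list (horizontal axis) against that of the G2/M list (vertical axis), one point per well, for plate A (left) and plate B (right), with diamonds for the analogues and squares for the topoisomerase poisons. RPS27L weighs most in the p53 sum, at a mean of 4752 CPM over the 192 wells beside 564.2 CPM for CDKN1A. Of the analogues clofarabine has the highest p53 sums, 15370 and 8857 CPM, cytarabine the highest G2/M sums, 5654 and 5082 CPM, and fludarabine the lowest G2/M sums, 1760 and 1642 CPM.

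Gemcitabine, a cytidine analogue with fluorines on the sugar, was given at the lowest dose and changed 46 genes against DMSO (0.54%), 27 up and 19 down, and 58 against untreated wells (0.681%). It changed 0 of 10032 genes against other compounds (0%), where 343 had an unadjusted p under 0.05 in edgeR. Against DMSO 7 genes were called without the plate A well and 8 without the plate B well. Against DMSO no list had a called member, and the 3 tested histone genes were not called for any of the 7 analogues. Against untreated wells DDIT4, PSAT1 and FANCI were called higher. GDF15 read 70.37 and 46.56 CPM and CDKN1A 353.6 and 458.2 CPM, overlapping DMSO in both. The CDKN1A log2 fold change was 0.01 with a 95% interval of −0.31 to 0.33. By the naming rule PTPN11, ATF2, FAM111B and PPP4R2 rose most, and C11orf74, SLC10A3 and ACBD3 were among those that fell most. PTPN11, the phosphatase SHP2, read 92.02 and 125.9 CPM against 42.8, 26.28, 28.84 and 31.26 CPM, above all DMSO wells (log2 fold change 1.76 ± 0.32, adjusted p = 0.00027, 0.26 without the plate B well). FAM111B, a protease, read 46.91 and 91.01 CPM against 14.27, 13.14, 19.73 and 41.68 CPM, also above them (1.59 ± 0.36, adjusted p = 0.013, 0.295 without the plate A well and 0.347 without the plate B well), but the untreated wells reached 68.56 CPM and it was not called against them. SLC10A3, a member of the bile acid transporter family, read 81.19 and 35.98 CPM against 292.4 and 192.7 CPM on plate A and 148.8 and 107.2 CPM on plate B, lower within each plate (−1.72 ± 0.25, adjusted p = 1.2e-06). TFPI2, a protease inhibitor named after its values were seen, read 15320 and 10790 CPM against 6824, 8276, 5725 and 5937 CPM, above all DMSO wells (0.94 ± 0.12, adjusted p = 7.9e-07), with untreated wells up to 12410 CPM.

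The cytosine analogues azacitidine, a ribonucleoside, and decitabine, its deoxy form, were given at different doses and are described side by side. Azacitidine changed 119 genes against DMSO (1.4%), 55 up and 64 down, and 145 against untreated wells (1.7%). Against other compounds it changed 0 (0%), where 378 genes had an unadjusted p under 0.05 in edgeR. Decitabine changed 40 genes against DMSO (0.47%), 30 up and 10 down, 29 against untreated wells (0.341%) and 3 against other compounds (0.0299%). Without the plate A well 10 genes were called for azacitidine and 4 for decitabine against DMSO, and without the plate B well 28 and 8.

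Most genes that demethylating drugs are known to switch on had too few counts to test after 24 h. Of 19 cancer-testis genes only MAGEA1 had enough counts to be tested, and it was not called for either drug. It read 9.364 and 17.03 CPM with azacitidine, 11.32 and 12.3 CPM with decitabine, 2.378, 10.95, 15.18 and 8.932 CPM with DMSO and 15.69, 22.43, 20.04 and 16.51 CPM untreated, so the groups overlapped. SSX1, below the filter, read 0 and 9.013 CPM with azacitidine and 1.887 and 5.469 CPM with decitabine, against 7.133, 0, 10.63 and 4.466 CPM with DMSO. Of 10 interferon response genes 0 were called for either drug (medians 0.07 and 0.25). DNMT1, the maintenance methyltransferase and a target of both drugs, read 104.6 and 134.2 CPM with azacitidine and 134 and 117.6 CPM with decitabine, against 116.5, 89.78, 167 and 108.7 CPM, with log2 fold changes of −0.03 (95% interval −0.49 to 0.44) and 0.06 (−0.42 to 0.53). No p53 target was called for either drug.

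Azacitidine raised EIF2A, MYC, MT2A and ANKRD40 most by the naming rule and lowered SETD5, LARP1B, ST8SIA5 and TOP1. MYC, the growth-promoting transcription factor, read 99.89 CPM on plate A and 46.07 CPM on plate B against 9.51, 10.95, 31.88 and 32.75 CPM, above all DMSO wells (log2 fold change 1.60 ± 0.41, adjusted p = 0.02), but not without the plate A well (adjusted p = 0.946). TOP1, DNA topoisomerase 1, read 198.2 and 150.2 CPM against 699, 746.7, 258.1 and 492.8 CPM with DMSO and 441.2, 653.8, 289 and 364.2 CPM untreated, below all control wells (−1.59 ± 0.23, adjusted p = 3e-05). MT2A, a metal-binding metallothionein and the most abundant gene, read 248000 and 74160 CPM against 51130, 62050, 41620 and 34520 CPM, higher within each plate (1.54 ± 0.20, adjusted p = 0.0012, 0.232 without the plate A well). The untreated wells read 108600, 134900, 47020 and 54270 CPM, and MT2A was not called against them (adjusted p = 0.06). NFKBIA, the inhibitor of NF-kB, read 231 and 268.4 CPM against 442.2, 455.5, 411.4 and 373.7 CPM, below all DMSO wells (−0.75 ± 0.17, adjusted p = 0.0054), and DDIT4 also fell while IL1B rose. None of these 3 was called without the plate A well (adjusted p = 0.696, 0.425 and 0.711) or without the plate B well (0.0554, 0.589 and 0.192).

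With both wells in the fit, decitabine raised URI1, CLIC4 and THOC7 against all controls. The calls against DMSO were not kept for URI1 and THOC7 without the plate A well (log2 fold changes 1.33 and 0.96). For CLIC4 the call against DMSO was not kept without the plate B well (1.48). URI1, a chaperone of the prefoldin family, read 209.4 and 157.2 CPM against 49.93, 37.23, 71.35 and 59.55 CPM with DMSO, and the other compound wells reached at most 101.1 and 105.1 CPM, so both wells were the highest (log2 fold change 1.75 ± 0.24 against other compounds, adjusted p = 5.4e-08). THOC7, a subunit of the mRNA export complex THO, read 303.8 and 270.7 CPM where other compound wells reached 227.8 and 215.6 CPM, again above every one (1.14 ± 0.20, adjusted p = 0.00011). CLIC4, a chloride channel protein, read 128.3 and 246.1 CPM where other compound wells reached 130.1 and 203.1 CPM, above all of them on plate B and all but the highest on plate A (1.21 ± 0.24, adjusted p = 0.0038). Without the plate A well none of the 3 was called against other compounds (adjusted p = 0.97 for URI1, 1 for THOC7 and 0.97 for CLIC4), and without the plate B well CLIC4 was not (0.998). The other largest rises against DMSO were ATF2 and GTF2F2, and the largest falls HMOX1, HNRNPM, DYNC1H1 and NRIP3. HMOX1, heme oxygenase, read 33.96 and 61.52 CPM against 102.2, 197.1, 95.64 and 98.25 CPM, below all DMSO wells (−1.26 ± 0.29, adjusted p = 0.012), but it was not called against untreated wells or without the plate A well (adjusted p = 1).

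Fludarabine, a fluorinated adenosine analogue given at 3.2 µM, had far more calls than the others, on far fewer counts. Against DMSO 1356 genes were called (15.9%), 529 higher (6.21%) and 827 lower (9.71%), against untreated wells 1412 (16.6%) and against other compounds 1382 of 10032 (13.8%), 405 higher and 977 lower. A single count was worth 13.5 CPM on plate A and 9.66 CPM on plate B, against 1.0 to 2.04 CPM in the other wells, and 1489 of the 8516 genes had no count in either well. The median log2 fold change over all genes was −0.62, or −0.15 when such genes were set to the limit of 3 counts over both wells, so changes are read against that shift. The part of depth in these calls was not tested. Of the 827 genes called lower 235 had no count. Without the plate A well 723 genes were called against DMSO and without the plate B well 536.

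CD74, HLA-DRB5 and CALR were among the genes called higher and were named after their values were seen. CD74, the invariant chain of MHC class II, read 2545 and 2743 CPM against 615.8, 746.7, 508.5 and 677.4 CPM with DMSO, and other compound wells reached at most 1210 and 915.5 CPM. Both wells were above all others, by 2.17 ± 0.15 on the log2 scale against DMSO (adjusted p = 1.1e-24) and 1.92 ± 0.14 against other compounds (adjusted p = 6.6e-26). HLA-DRB5, an MHC class II chain whose reads can be shared with other class II genes, read 1137 and 1014 CPM against 292.4, 332.9, 256.5 and 157.8 CPM. It did not overlap DMSO and rose by 2.19 ± 0.19 on the log2 scale (adjusted p = 1.4e-17). CALR, a chaperone of the endoplasmic reticulum, read 2220 and 5166 CPM against 699, 532.1, 1038 and 882.8 CPM (2.30 ± 0.27, adjusted p = 2.9e-05, 0.117 without the plate B well). Of 10 interferon response genes IFI6 and IFI27 rose and 0 fell. IFI6 read 216.6 and 173.8 CPM against 26.15, 56.94, 48.58 and 34.24 CPM (2.32 ± 0.40, adjusted p = 4e-06). Of 5 tested glioma line markers CD44, CHI3L1 and FN1 rose, but FN1 was not called without the plate A well (adjusted p = 0.0535) or the plate B well (0.0764), nor CD44 without the plate B well (0.712).

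By the naming rule DSCAM-AS1, THBS1, H19 and GALNT13 rose most, on few counts. H19, an imprinted noncoding RNA, had 31 and 25 counts, 419.6 and 241.4 CPM, against 26.15, 78.84, 13.66 and 22.33 CPM, above all DMSO wells and above the highest other compound wells at 205.7 and 93.36 CPM (log2 fold change 3.41 ± 0.40 against DMSO, adjusted p = 1.6e-11). DSCAM-AS1, a noncoding RNA known from breast cancer cells, had 13 and 10 counts, 176 and 96.57 CPM, while other compound wells reached 40.02 and 24.31 CPM (3.89 ± 0.60 against them, adjusted p = 8.4e-08). THBS1, the matrix protein thrombospondin 1, had 5 and 10 counts. KRT18, an epithelial keratin on the list of other cell markers, had 3 and 5 counts, 40.6 and 48.28 CPM, where other compound wells reached 20.92 and 13.05 CPM (3.19 ± 0.74, adjusted p = 0.00067, 0.229 without the plate B well). The list as a whole summed to 81.21 and 106.2 CPM in the fludarabine wells, within the range of the DMSO wells, and its part in these rises was not tested.

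ACTG1, TUBB6 and COL1A1 were among the genes called lower and were also named after their values were seen. ACTG1, cytoplasmic actin, read 108.3 CPM against 1633 and 1590 CPM on plate A and 589.1 CPM against 3885 and 3679 CPM on plate B, far below DMSO on each plate (log2 fold change −2.85 ± 0.19, adjusted p = 6.6e-25). TUBB6, a beta tubulin, read 27.07 and 19.31 CPM against 820.3, 1123, 951.8 and 1033 CPM (−5.33 ± 0.38, adjusted p = 1.9e-23), and COL1A1, type I collagen, 162.4 and 77.25 CPM against 2095, 2245, 724.1 and 771.2 CPM (−3.49 ± 0.25, adjusted p = 1.8e-23). Neither overlapped DMSO. NFKBIA read 27.07 and 28.97 CPM against 373.7 to 455.5 CPM (−3.77 ± 0.41, adjusted p = 3.7e-13). The genes of largest fall by the naming rule had no count in either well: ASB1, which had 327 counts in the DMSO wells, was at least 8.76-fold lower, CHAMP1 at least 6.78-fold, FOXL1 at least 5.6-fold and PHC2 at least 5.57-fold, taking 3 counts over both wells as the limit. MT2A read 21110 and 8913 CPM, below all DMSO wells, the lowest of which read 34520 CPM (−1.68 ± 0.23, adjusted p = 0.00012).

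Over all genes 9.71% were called lower with fludarabine, the share beside which the falls on the G2/M and p53 lists are read. Of 30 G2/M genes 14 fell and 0 rose, with a median of −1.85, or −1.59 with genes without counts at their limit, and DESeq2 called 10. Without the plate A well 7 fell, and without the plate B well 8. CCNB1 read 27.07 and 57.94 CPM against 171.2, 164.2, 227.7 and 153.3 CPM, below all DMSO wells (log2 fold change −1.89 ± 0.43, adjusted p = 0.00057). Of 27 p53 targets 4 fell, CCNG1, CDKN1A, POLH and ZMAT3, and 0 rose (median −1.13, or −0.42 at the limit), with 2 falls without the plate A well and 1 without the plate B well. CDKN1A read 189.5 and 144.9 CPM, below all DMSO wells (−1.19 ± 0.27, adjusted p = 0.00068, 0.173 without the plate B well), the opposite direction to clofarabine and cytarabine. GDF15 read 67.67 and 48.28 CPM, above and within the DMSO range, and was not called.

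The genes that take up, activate or degrade these drugs were measured in all wells. SLC29A1, the main equilibrative nucleoside transporter, averaged 126.5 CPM over the 192 wells, DCK, the kinase that activates most of the 7 drugs, 33.78 CPM, CDA, the deaminase that inactivates cytidine analogues, 30.21 CPM, and DNMT1 117.9 CPM. DNMT3B, a de novo methyltransferase, and TYMS, thymidylate synthase, averaged 0.678 and 0.409 CPM and were not tested. These are levels of 3′ counts and are not compared between genes. Of 24 tested genes on the list 0 were called for clofarabine against DMSO (5 at an unadjusted p under 0.05 in edgeR, 0 called by DESeq2). DCK with clofarabine read 30.54 and 58.63 CPM against 40.42, 32.85, 18.22 and 20.84 CPM, an overlapping range. RRM2, the small subunit of ribonucleotide reductase, read 219.9 and 405.1 CPM with clofarabine against 178.3, 293.4, 350.7 and 318.6 CPM, overlapping DMSO. Its p53-induced relative RRM2B read 40.72 CPM against 14.27 and 24.09 CPM on plate A and 23.98 CPM against 10.63 and 23.82 CPM on plate B. RRM2B overlapped DMSO between plates but not within a plate, narrowly so on plate B. Neither gene was called. With cladribine, gemcitabine, cytarabine, azacitidine and decitabine 0 of the 24 were called against DMSO, while against untreated wells RRM1 was called lower with azacitidine and DNMT1 with cytarabine. With fludarabine CMPK1 rose and PNP, RRM2 and SLC29A1 fell against DMSO. The 3 falls were 12.5% of the list, near the 9.71% of all genes called lower, and CMPK1, PNP and RRM2 were not called without the plate B well (adjusted p = 0.51, 0.35 and 0.246). SLC29A1 read 13.53 and 28.97 CPM, against 116.5, 175.2, 100.2 and 123.6 CPM (log2 fold change −2.38 ± 0.57, adjusted p = 0.0012, 0.0851 without the plate A well).

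The mean of the 7 analogues differed from DMSO in 330 genes (3.88%), 74 higher and 256 lower, and in 166, 63 higher and 103 lower, without the fludarabine wells. It differed in 142 without the plate A wells and 87 without the plate B wells. From the other compounds it differed in 239 genes (2.38%), 18 higher and 221 lower, but in 0 without the fludarabine wells, where 598 had an unadjusted p under 0.05 in edgeR, and without the plate A or plate B wells 9 and 12 were called. By the naming rule CHAC1, NDUFA4, PLXNB2, ANKRD40, PIGT, RHOB, ATP5E and CTDNEP1 rose most against DMSO, and ST8SIA5, SETD5, HRH1, NDUFV2, C10orf10, TAF15, CKAP5 and MPP6 fell most. NDUFA4, a mitochondrial respiratory chain subunit, read 572 to 1167 CPM over the 14 wells against 418.5, 532.1, 367.4 and 407.9 CPM with DMSO, with no overlap (log2 fold change 1.06 ± 0.11, adjusted p = 1.6e-10). Medians of the other compound wells were 704.7 and 706.6 CPM, so the DMSO wells were low beside them. SETD5 read 0 to 52.83 CPM over the 14 wells against 63.51 CPM or more with DMSO (−2.08 ± 0.26, adjusted p = 6.4e-09), and the other compound medians were 25.26 and 38.6 CPM, which placed the analogue wells among them.

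The 5 analogues that act mainly on DNA synthesis, gemcitabine, cytarabine, fludarabine, cladribine and clofarabine, were set beside 4 drugs that break DNA by trapping topoisomerases on the same plates, etoposide at 3 µM, irinotecan at 1.5 µM, teniposide at 0.629 µM and topotecan hydrochloride at 0.098 µM. Doses differed, so the contrast describes these wells. The mean of the 5 differed from the mean of the 4 in 796 of 8685 genes (9.17%), 270 higher (3.11%) and 526 lower (6.06%), and in 438, 291 higher and 147 lower, without the fludarabine wells. Of 29 p53 targets 16 were lower and 0 higher (median −0.92), or 13 and 0 without the fludarabine wells (median −0.57). Of 30 G2/M genes 17 were higher and 0 lower (median 0.87), or 29 and 0 without them (median 1.21). Over all genes the medians were −0.16 and 0.006. The p53 targets called lower were 11 without the plate A wells and 10 without the plate B wells, and the G2/M genes called higher 10 and 7. Without the plate A wells of the analogues 292 genes were called and without the plate B wells 254.

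CDKN1A read 686.4 to 2043 CPM on plate A and 991.3 to 2341 CPM on plate B with the topoisomerase poisons. The clofarabine wells, at 1759 and 2436 CPM, lay in or above that range, cytarabine at 626.4 and 881.1 CPM lay just below it, and the other 3 analogues lay further below. The log2 difference of the means was −1.44 ± 0.09 (adjusted p = 8.2e-27). GDF15 read 143.6 to 419.1 CPM on plate A and 90.35 to 416.7 CPM on plate B, below clofarabine at 669.8 and 760.9 CPM on both plates. CCNB1 read 26.34 to 190.9 CPM and 23.69 to 209.1 CPM with the poisons, whereas gemcitabine at 214.7 and 232.8 CPM, cytarabine at 320.6 and 299 CPM and cladribine at 203.1 and 225.9 CPM lay above every poison well of their plate, and clofarabine at 136.4 and 146.6 CPM and fludarabine at 27.07 and 57.94 CPM lay within the range (log2 difference of the means 0.92 ± 0.17, adjusted p = 4.6e-05, 0.139 without the plate B wells).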

How the data were processed

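Per the labels and the study's methods, the authors aligned reads with BWA to hg19 transcripts, kept unique sense reads and deposited raw counts per gene symbol and well, without molecular identifiers, so counting error does not cover PCR copies. Both U87 tables that hold the analogue wells were used (23710 symbols), and 92 spike-in sequences were left out. The members, gene lists and tests were chosen with earlier results of these data known.

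Counts were fitted with edgeR 4.0.16 in R 4.3.3 (TMM scaling, filterByExpr, robust quasi-likelihood test, plate as a term) over 22 analogue and control wells (8516 genes), with Benjamini-Hochberg adjustment over all genes tested and calls at an adjusted p under 0.05. Second fits covered the other compound wells (10032 genes) and the topoisomerase poisons (8685 genes). CPM per well and fold changes both used TMM scaling. DESeq2 1.42.0 was the alternative tool. Plates pair the samples: same-plate deviations of each analogue and DMSO correlated at 0.169 to 0.556 in all 7 pairs. For compounds replicates 1 and 2 were plates A and B. Fits without the plate A or plate B well of a compound left out that plate's wells of all 7 analogues. For DMSO and untreated wells replicates 1 and 2 were on plate A and 3 and 4 on plate B. The tests were tried on simulated data.

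Named genes were the 4 largest rises and falls per analogue among calls whose higher group averaged 50 CPM or more with both wells outside the DMSO range (8 each for the mean of 7, with at least 12 of 14 wells on one side of the DMSO median; against other compounds, both wells outside the 10th to 90th percentile of their plate), every called list member, and a fixed set of p53, nucleotide and mitotic genes. Some genes that meet these rules are not reported here. Other genes are said to be named after their values were seen.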

Additional observations from a re-analysis of the deposited data

Results flagged for a closer look

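Dixon's test at its 95% critical value was run in 40 groups of 4 control wells, over 19 genes and the total count, and set apart 2 values, where chance sets apart about 1 group in 20. MDM2 read 10.95 CPM in DMSO replicate 2, far from 40.42, 40.99 and 37.22 CPM in the other DMSO wells, which touches its rise with clofarabine. TXNDC17 read 253.1 CPM in untreated replicate 3, far from 172.6, 176 and 171.3 CPM, and still below the cladribine wells at 390.7 and 391.5 CPM.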

How the results depend on the processing

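Single counts were worth 13.5 and 9.66 CPM in the fludarabine wells, and each analogue had 2 wells. Of 193 recomputed counts of called genes, 66 moved by over 1.5 times and 127 did not. No called gene reversed its direction. Of 2541 recomputed values of named genes 467 lost the call, 9 gained it, 26 without a call changed sign, and 11 values against the median of the other wells of the plate, which have no test, moved beyond the replicate spread. The cause of these shifts was not tested. DESeq2 moved no count by over 1.5 times.

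The plates pair the samples, so the block stayed in the main fit. With no replicate block, calls by edgeR against DMSO were 1 for azacitidine, 0 for decitabine, gemcitabine, cytarabine and cladribine (245, 255, 304 and 319 at an unadjusted p under 0.05), 6 for clofarabine, 702 for fludarabine, 12 for the mean of 7 and 0 for untreated wells (312 at that p). They were 2 for cladribine against clofarabine, 103 against the topoisomerase poisons, and against other compounds 1 for cladribine, 6 for clofarabine and 111 for the mean. Pooling DMSO and untreated wells gave 14 for decitabine, 24 for gemcitabine and 593 for the mean, and untreated wells alone gave 129 for cladribine and 339 for clofarabine. With no filter on low counts, calls against other compounds were 5 for azacitidine, 12 for decitabine, 5 for gemcitabine, 1 for cytarabine, 8 for cladribine, 42 for clofarabine and 121 for the mean, which was 147 with RLE size factors. Without the fludarabine wells calls were 128 for cladribine against clofarabine, 438 against the topoisomerase poisons, 166 for the mean against DMSO and 0 against other compounds (598 at that p).

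Fits left out either 1 DMSO well or the wells of all 7 analogues on 1 plate. For the analogues against DMSO, the low ends came from leaving out a plate's analogue wells and the high ends from leaving out a DMSO well. The fits against the topoisomerase poisons and other compounds left out only a plate's analogue wells. Calls against DMSO ranged from 10 to 112 for azacitidine, 4 to 42 for decitabine and 7 to 44 for gemcitabine. They were 4 to 85 for cytarabine, 536 to 1350 for fludarabine, 8 to 74 for cladribine and 23 to 223 for clofarabine. Calls were 87 to 239 for the mean and, with only DMSO wells left out, 33 to 67 for untreated wells. They ranged from 11 to 107 for cladribine against clofarabine and 254 to 292 against the topoisomerase poisons. Against other compounds they ranged from 0 to 3 for decitabine, 407 to 562 for fludarabine, 0 to 4 for cladribine, 0 to 0 for clofarabine and 9 to 12 for the mean.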
